A study of Mus musculus with 4 samples.

Results

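Hsd11b1 encodes the enzyme that regenerates active glucocorticoid inside cells. It was followed here together with 6 genes of glucocorticoid signalling: the receptors Nr3c1 and Nr3c2 and the response genes Tsc22d3, Fkbp5, Sgk1 and Per1. All 7 were taken by name from the 32287 gene rows that the libraries of both conditions share. Hsd11b1 was selected on its lower level in injured than in uninjured astrocytes of these same libraries, and the other 6 were chosen by name with earlier results of the data known, so every value for them is a description.

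The cells came from tamoxifen-treated Cx30-CreERT2 x R26R-tdTomato mice aged 8 to 12 weeks, in which a Cre driven by the gap junction gene Cx30 labels astrocytes and, as these libraries show, other cells too. All mice had received an intravenous pool of AAV-PHP.eB viruses carrying 23 enhancers, which in the injured mice preceded surgery by 14 days. The injured group had a contusion of the mid-thoracic spinal cord and was sampled at 3 days after injury, while the uninjured group was sampled at the same level of the cord. From each group, tdTomato-positive cells of 5 mm segments were sorted from pooled animals into 1 droplet library for gene expression, which leaves no replicates. The study's methods give 1 to 2 animals per sex in a pool, which the uninjured library went against, as given below. Injured mice also had surgery under anaesthesia with buprenorphine, carprofen and antibiotics, the sources used here give neither a sham operation nor the hour of sampling, and these cannot be told apart from the injury itself.

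Glucocorticoids act through intracellular receptors. In tissue, the enzyme 11β-HSD1, the product of Hsd11b1, converts the inactive 11-keto steroid into corticosterone, and H6pd supplies the cofactor for this reaction. The glucocorticoid receptor Nr3c1 and the mineralocorticoid receptor Nr3c2, which binds corticosterone with high affinity, then enter the nucleus and switch on genes such as Tsc22d3 (the anti-inflammatory protein GILZ), Fkbp5 (a co-chaperone that dampens the receptor), Sgk1 (a kinase of ion transport) and Per1 (a clock gene).

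The receptor binds DNA at a palindromic element, and the letters AGAACA and TGTTCT, with any 3 bases between them, were searched in the RefSeq windows of 250 bases before to 50 bases after annotated transcription starts (GRCm38.p6). This pattern reads the same on both strands. It occurred in 3 of 32851 windows (0.00913%), and 1 of these 3 belonged to Sgk1, in 1 of its 6 windows. The 250 bases before that start (chr10:21993640-21993889, + strand) are shown with the element in capitals, 189 bases upstream of the start. Beside them are the 250 bases before the 1 Hsd11b1 start searched (chr1:193242361-193242610, - strand), in whose window the pattern was not found.
Sgk1: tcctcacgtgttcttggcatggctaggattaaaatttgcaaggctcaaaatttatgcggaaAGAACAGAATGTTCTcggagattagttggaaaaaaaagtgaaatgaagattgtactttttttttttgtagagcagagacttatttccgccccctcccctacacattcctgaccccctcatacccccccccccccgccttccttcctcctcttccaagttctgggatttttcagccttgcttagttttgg
Hsd11b1: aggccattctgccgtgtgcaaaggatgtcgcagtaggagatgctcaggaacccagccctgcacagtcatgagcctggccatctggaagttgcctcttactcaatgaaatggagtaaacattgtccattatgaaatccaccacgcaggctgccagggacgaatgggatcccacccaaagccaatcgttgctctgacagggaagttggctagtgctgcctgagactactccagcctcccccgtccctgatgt
The windows of Fkbp5, Nr3c2, Per1 and Tsc22d3 did not hold this pattern either. Those of Hsd11b1, Fkbp5, Nr3c2 and Per1 lay inside the gene spans given below, so the outer ends of these spans were not searched. Nr3c1 is not covered here. Binding was not measured in these libraries, and the pattern describes the reference sequence only.

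In GENCODE M21 on GRCm38, Hsd11b1 (ENSMUSG00000016194) spans chr1:193221634-193264075 on the minus strand. Fkbp5 lies at chr17:28399094-28517527 (minus strand), Sgk1 at chr10:21882184-21999903 (plus strand), Per1 at chr11:69095217-69109960 (plus strand), Nr3c2 at chr8:76899442-77245012 (plus strand) and Tsc22d3 at chrX:140539528-140600659 (minus strand). Annotated genes that overlap Hsd11b1, Nr3c2 or Fkbp5 on their own strand are not counted as features in these libraries.

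The injured library held 879 cells and 8499672 unique molecular identifiers (UMIs, counted cDNA molecules) of genes after filtering, and the uninjured library held 4159 cells and 15543460 UMIs. Clustering without the 77 genes of the lists used here gave 13 clusters, and 11 were named from marker genes. Astrocyte-like cells numbered 388 in the injured and 3292 in the uninjured library, with medians of 3817 and 3473.5 UMIs per cell. All 8 astrocyte markers were found in at least 10% of these cells in each library. Other classes with at least 30 cells in both libraries were microglia-like (126 and 31 cells), ependymal-like (143 and 31) and fibroblast-like (43 and 95), while OPC-like (46) and endothelial-like cells (70) reached that number in the injured library. The study's methods give animals of each sex in every pool, but the uninjured library went against this, with 2 cells scored female and 2770 male, whereas the injured library had 250 and 315. They shared 7 cell barcodes, and without those cells the ratios of the 7 genes, the shares of cells with Hsd11b1 and the counts of called list genes in astrocyte-like cells stayed within counting error or the same count.

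Hsd11b1 ranked below only Nr3c2 among the 7 genes in UMIs of the uninjured astrocytes and had the lowest ratio of the 7 between conditions. The uninjured cells held 3624 Hsd11b1 UMIs, a level of 287 UMIs per 1000000 gene UMIs (CPM; 95% Poisson interval 278 to 297), and the injured cells held 71, a level of 32.4 CPM (25.3 to 40.9). The level was 8.86-fold lower in the injured library (95% interval 7.01 to 11.4, exact conditional binomial), and the log2 ratio with 1 CPM added to both sides was -3.11. Intervals here and throughout cover counting error only, because no second library shows the spread between animals. Hsd11b1 ranked 9 from the lowest ratio among the 7767 genes at 20 CPM or more in either condition, and it was chosen for this ratio.

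Of the 7 genes, 6 passed the 20 CPM minimum in astrocyte-like cells. At a 2-fold difference, 3 were lower in the injured library (Hsd11b1, Nr3c2 and Tsc22d3), 1 was higher (Fkbp5) and 2 were within 2-fold (Nr3c1 and Per1). Fkbp5, at 1.43 CPM in the uninjured library, passed through the injured library alone. Over all 7767 genes, 7.03% were at least 2-fold lower and 13.3% at least 2-fold higher, and the median log2 ratio was 0.02. Nothing is read from the share of the 7 genes, which were picked with this contrast known.

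**Figure D1:**
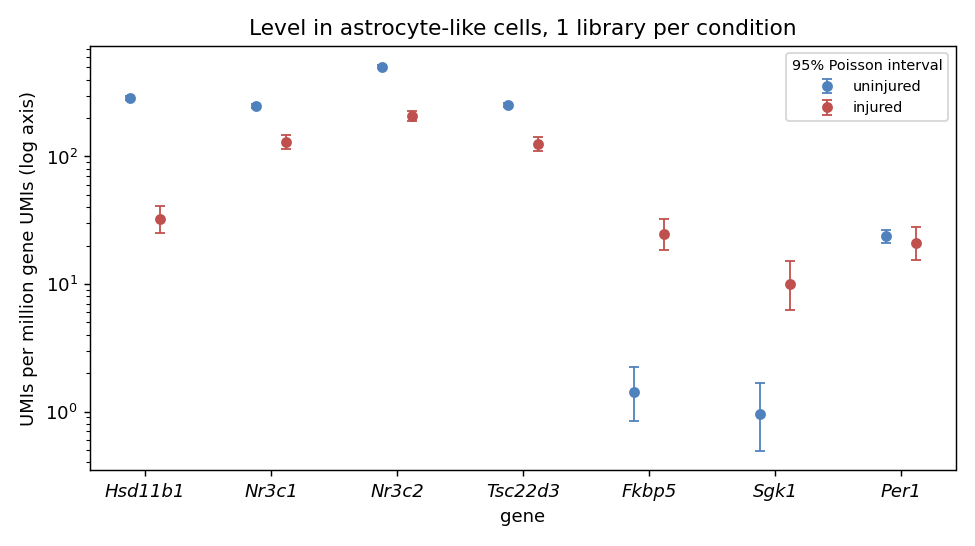
Level of the 7 genes in astrocyte-like cells, as UMIs per 1000000 gene UMIs on a log axis, for the uninjured and the injured library; points are single libraries and bars are 95% Poisson intervals. Hsd11b1 lies at 287 CPM in the uninjured and 32.4 CPM in the injured library, while Fkbp5 and Sgk1 lie higher in the injured library and the Per1 intervals overlap.

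Both receptors were detected in astrocyte-like cells of each library and were lower in the injured one. Nr3c2 stood at 507 CPM (494 to 519) in uninjured and 209 CPM (190 to 229) in injured cells, 2.43-fold lower (2.21 to 2.68). Nr3c1 stood at 247 CPM (238 to 256) and 130 CPM (115 to 146), 1.90-fold lower (1.68 to 2.15). On this scale the mineralocorticoid receptor gave more UMIs than the glucocorticoid receptor in both libraries, although 3′ capture may differ between genes and the levels of the 2 transcripts are not compared further. Among male-scored cells alone the log2 ratio of Nr3c2 was -0.94, just within 2-fold. With cells weighted equally, that of Nr3c1 was -1.21, beyond it.

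The 4 response genes did not share a direction. Tsc22d3 was at 254 CPM (245 to 263) in uninjured and 126 CPM (111 to 141) in injured astrocyte-like cells, 2.02-fold lower (1.79 to 2.29). This value sits at the 2-fold limit, and its log2 ratio of -1.01 became -0.74 with each cell thinned to 1000 UMIs, -0.82 with cells weighted equally and -0.73 without cells that held a UMI of a microglia, endothelial or fibroblast marker. Per1 gave 23.7 CPM (21.1 to 26.5) and 21.0 CPM (15.4 to 28.0), a ratio of 0.886 (0.635 to 1.21), so a difference in Per1 was not detectable at this depth. At 1000 UMIs per cell its log2 ratio was -1.06, from 2.45% of uninjured and 1.13% of injured cells with a UMI, too few to read a difference from.

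Fkbp5 and Sgk1 were close to absent from uninjured astrocytes and low in injured ones. Fkbp5 had 18 UMIs in 17 uninjured cells (1.43 CPM, 0.845 to 2.25) and 54 UMIs in 38 injured cells (24.7 CPM, 18.5 to 32.2), 17.3-fold higher (9.98 to 31.3). Sgk1 had 12 UMIs in 11 uninjured cells (0.951 CPM, 0.491 to 1.66) and 22 UMIs in 18 injured cells (10.0 CPM, 6.30 to 15.2), 10.6-fold higher (5.01 to 23.4), and stayed under the 20 CPM minimum. With 10 CPM added to both sides the log2 ratios of 3.40 and 2.50 became 1.60 and 0.87.

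Markers of other cells were present at low levels in the injured astrocyte-like cells and are given beside these 2 genes. The 8 microglia markers lay at 0% to 4.39% of their level in microglia-like cells (summed level 159 against 16823 CPM, 0.945%; Tmem119 at 0 UMIs), while Sgk1 lay at 4.79% and Fkbp5 at 23.9%. The 8 endothelial markers summed to 0.138% of their level in endothelial-like cells, with Sgk1 at 3.27% and Fkbp5 at 87.9%. The 8 fibroblast markers summed to 0.429% (0% to 4.90%), with Sgk1 at 4.74% and Fkbp5 at 80.9%, and the 8 OPC markers to 9.44% (0% to 13.6%), with Sgk1 at 8.98% and Fkbp5 at 32.6%. The 8 ependymal markers summed to 4.56% (0% to 22.9%), and against that class Sgk1 was at 84.5% and Fkbp5 at 461%. In the uninjured astrocyte-like cells, the microglia markers summed to 0.736% of their level in microglia-like cells, with Sgk1 at 0.445% and Fkbp5 at 2.78%. Sgk1 thus lay within the range of single OPC and fibroblast markers and slightly above the highest microglia marker. It was above every endothelial and every ependymal marker. Fkbp5 exceeded each single marker of all 5 classes. The part of RNA or cells of other classes in the Sgk1 and Fkbp5 values was not tested beyond these percentages and the cells without microglia, endothelial or fibroblast markers.

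When every astrocyte-like cell with a UMI of any microglia, endothelial or fibroblast marker was left out, 144 injured and 1620 uninjured cells remained. Among them Sgk1 had 5 UMIs in the injured library (11.4 CPM, 3.69 to 26.5) and 3 in the uninjured library (0.576 CPM, 0.119 to 1.68), a ratio of 19.7 (3.83 to 127). Fkbp5 had 3 UMIs (6.81 CPM, 1.41 to 19.9) and 7 UMIs (1.34 CPM, 0.541 to 2.77), a ratio of 5.07 (0.846 to 22.2). The Sgk1 interval thus stayed above 1 in these cells, on 5 and 3 UMIs, and the interval for Fkbp5 reached 1. Hsd11b1 there was at 18.2 CPM (7.85 to 35.8) against 287 CPM (272 to 301). Cells with OPC or ependymal markers were kept, and OPC-like cells of the injured library held Sgk1 at 112 CPM. The part of those classes in the Sgk1 value was not tested. This choice of cells was made after the data were seen and also favours cells with few UMIs.

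The share of astrocyte-like cells with a Hsd11b1 UMI followed the same order as the level. It was 49.5% of uninjured cells (1630 of 3292; 95% Clopper-Pearson interval 47.8% to 51.2%) and 12.9% of injured cells (50 of 388; 9.72% to 16.6%). The injured share depended on which cells were taken: it was 19.7% (uninjured 53.4%) among male-scored cells, and 4.86% (uninjured 44.4%) without cells holding a microglia, endothelial or fibroblast marker. At an equal depth of 1000 UMIs per cell it was 21.3% (19.9% to 22.7%) and 3.40% (1.77% to 5.86%), with 66 uninjured and 35 injured cells too shallow to enter. Cells with 2 or more UMIs made up 26.3% of the uninjured and 3.35% of the injured cells. The highest count in a cell was 14 in the uninjured and 5 in the injured library.

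Low shares were also found in other classes, and whether these UMIs were free RNA was not tested. Of 126 injured microglia-like cells, 2 had a Hsd11b1 UMI (1.59%; 0.193% to 5.62%), at a median of 14070.5 UMIs per cell, and of 31 uninjured ones none did, which allows a share of up to 9.68%. At 1000 UMIs the injured share was 0.826% (0.0209% to 4.52%), and this interval overlaps that of the injured astrocyte-like cells. On the CPM scale the injured astrocyte-like cells lay 20.4-fold above the microglia-like cells (6.71 to 101), whose 3 UMIs gave 1.59 CPM (0.327 to 4.64). These 3 UMIs stood beside 53 UMIs of Slc1a2, Aqp4, Aldoc and Gja1. Per 1000 UMIs of those 4 transcripts this was 56.6 (11.7 to 165), against 3.67 (2.87 to 4.63) in injured astrocyte-like cells. Endothelial-like cells of the injured library held 0 Hsd11b1 UMIs in 748963, where 3 counts would be 4.01 CPM.

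Among the other named classes, Hsd11b1 was highest in fibroblast-like cells, and there its level was close in both libraries. They gave 98 UMIs in 43 injured cells (136 CPM, 110 to 166) and 42 UMIs in 95 uninjured cells (128 CPM, 92.2 to 173), a ratio of 1.06 (0.733 to 1.56), which does not overlap the interval for astrocyte-like cells (0.0880 to 0.143). In the uninjured library the astrocyte-like level was 2.25-fold that of fibroblast-like cells (1.66 to 3.12), and in the injured library it was 0.239 of it (0.173 to 0.327). The order of these classes was therefore opposite in the 2 libraries. Relative to the same 4 astrocyte transcripts, fibroblast-like cells held 371 (301 to 452) and 179 (129 to 242) Hsd11b1 UMIs per 1000 UMIs of those transcripts in the injured and uninjured library, against 3.67 (2.87 to 4.63) and 27.1 (26.2 to 28.0) in astrocyte-like cells. Of the 264 UMIs of those transcripts in injured fibroblast-like cells, 219 were Gja1, seen in 74.4% of the cells. The 4 transcripts may therefore not mark astrocyte RNA alone in this class.

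Ependymal-like cells held 5 Hsd11b1 UMIs in each library, in 1 injured and 2 uninjured cells (2.97 CPM, 0.965 to 6.93, and 31.5 CPM, 10.2 to 73.6). Per 1000 UMIs of the same 4 astrocyte transcripts these were 3.46 (1.12 to 8.08) and 22.3 (7.25 to 52.1), and both intervals hold the value of the astrocyte-like cells of the same library. Aldoc was seen in 80.4% and Gja1 in 74.8% of the injured ependymal-like cells, so the 4 transcripts may not mark astrocyte RNA alone here either. Hsd11b1 in this class could not be told apart from astrocyte RNA at this depth.

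The 667 uninjured cells of the unnamed clusters held 426 Hsd11b1 UMIs (202 CPM, 183 to 222), in 34.6% of cells, and this level was above that of fibroblast-like cells. Nearly all of these UMIs (419) lay in the 536 cells of the cluster led by neuronal genes (222 CPM, 201 to 244), which held astrocyte transcripts too: per 1000 UMIs of the 4 astrocyte transcripts, the unnamed cells had 20.2 Hsd11b1 UMIs (18.3 to 22.2). The 50 unnamed cells of the injured library held none, which allows up to 18.4 CPM.

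**Figure D2:**
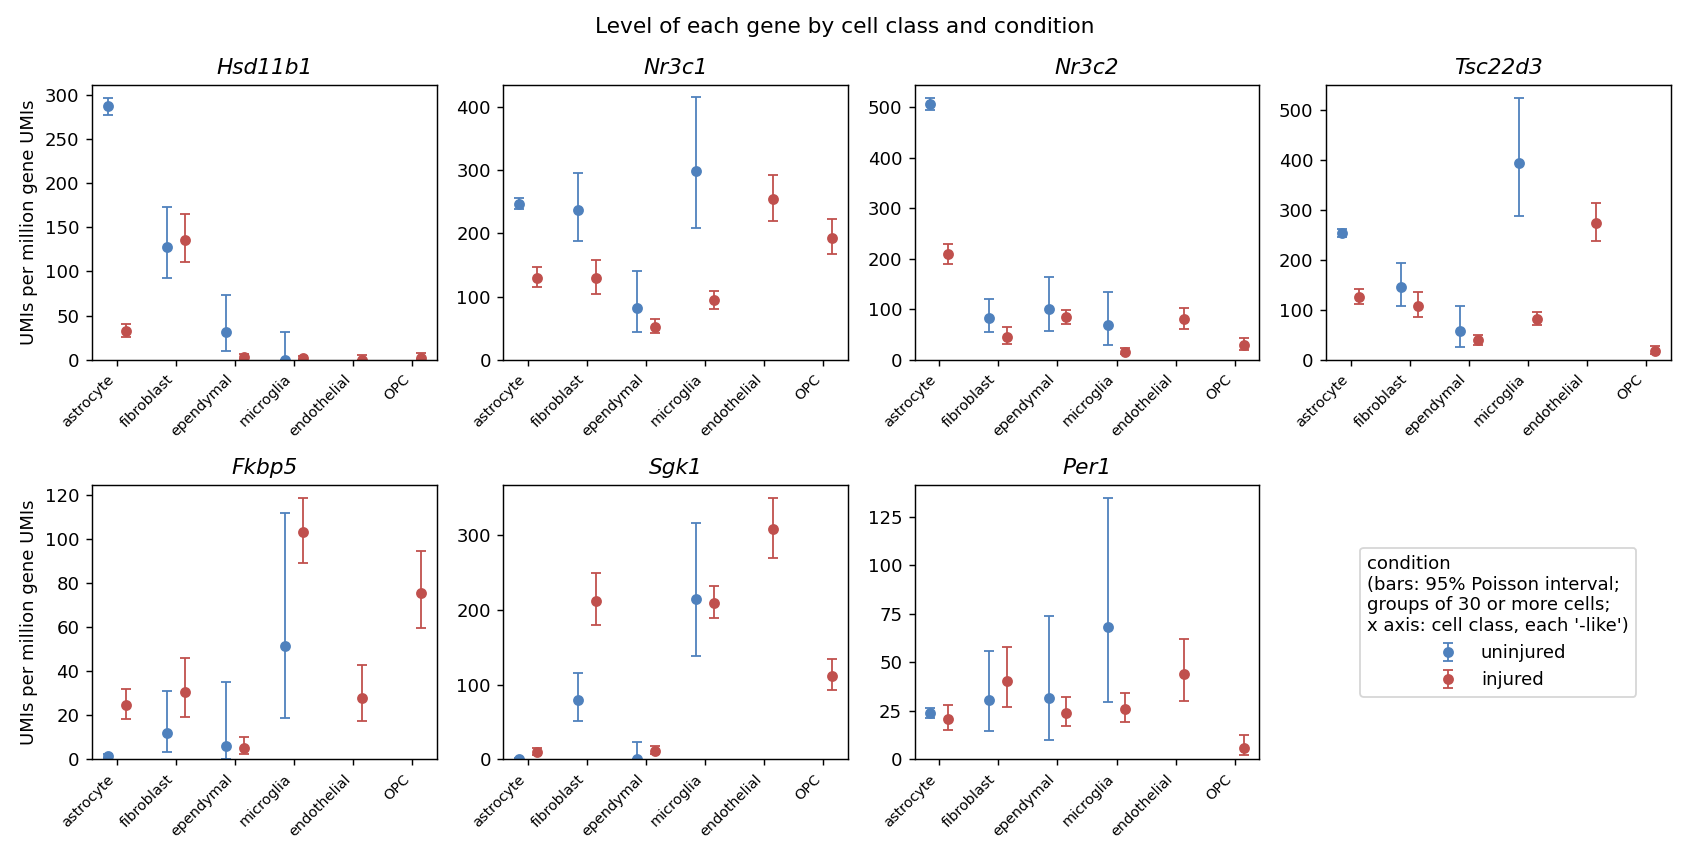
Level of each gene (UMIs per 1000000 gene UMIs, linear axes that differ between panels) in the cell classes with at least 30 cells, uninjured in blue and injured in red, with 95% Poisson intervals. Among the named classes shown, Hsd11b1 exceeds 50 CPM in uninjured astrocyte-like cells and in fibroblast-like cells of both libraries, Nr3c2 is highest in astrocyte-like cells of both libraries, and Sgk1 is lowest in astrocyte-like and ependymal-like cells.

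Across classes, each receptor had its own pattern. Nr3c2 was highest in astrocyte-like cells of both libraries, 5.02-fold above ependymal-like cells in the uninjured library (3.09 to 8.79) and 2.47-fold in the injured one (2.04 to 3.01), and microglia-like cells were lowest (68.4 and 15.9 CPM). In the uninjured library, neighbours in the order ependymal-like, fibroblast-like and microglia-like did not differ beyond counting error. Nr3c1 was spread more evenly. In the uninjured library microglia-like (299 CPM), astrocyte-like (247 CPM) and fibroblast-like cells (237 CPM) did not differ from their neighbours beyond counting error, and ependymal-like cells were lower (82.0 CPM, 43.7 to 140). In the injured library Nr3c1 went from endothelial-like (254 CPM) and OPC-like (193 CPM) through astrocyte-like and fibroblast-like cells (130 and 129 CPM, not different beyond counting error) to microglia-like (94.2 CPM) and ependymal-like cells (52.3 CPM).

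Tsc22d3 was highest in microglia-like cells of the uninjured library (393 CPM, 288 to 525), 1.55-fold above astrocyte-like cells (1.13 to 2.07). In the injured library endothelial-like cells were highest (274 CPM, 237 to 314), followed by astrocyte-like and fibroblast-like cells (126 and 108 CPM), whose levels did not differ beyond counting error. Microglia-like cells there were at 82.5 CPM (70.1 to 96.6).

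Sgk1 and Fkbp5 were mostly transcripts of other cells. In the injured library Sgk1 was at 307 CPM (269 to 349) in endothelial-like, 212 CPM (180 to 248) in fibroblast-like, 210 CPM (189 to 231) in microglia-like and 112 CPM in OPC-like cells, and at 11.9 CPM in ependymal-like cells, which did not differ from astrocyte-like cells beyond counting error. In the uninjured library the order was microglia-like (214 CPM, 138 to 316), then fibroblast-like cells (79.2 CPM, 51.7 to 116), which stood 83.2-fold above astrocyte-like cells (40.5 to 181). Fkbp5 was highest in microglia-like cells of both libraries (103 and 51.3 CPM; in the uninjured one the step to fibroblast-like cells was within counting error), and in the injured library the astrocyte-like level of 24.7 CPM did not differ from the endothelial-like (28.0 CPM) or fibroblast-like level (30.5 CPM) beyond counting error. Per1 was low in all classes. In the uninjured library the astrocyte-like level was 0.346 of the microglia-like one (0.173 to 0.810), and in the injured library it was 0.477 of the endothelial-like (0.298 to 0.770) and 0.522 of the fibroblast-like level (0.321 to 0.862), with OPC-like cells lowest (5.89 CPM).

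Between conditions, microglia-like cells also had lower Nr3c1, Nr3c2 and Tsc22d3 in the injured library. Nr3c1 was at 94.2 against 299 CPM, a ratio of 0.315 (0.218 to 0.466), Nr3c2 at a ratio of 0.232 (0.104 to 0.586) and Tsc22d3 at 0.210 (0.150 to 0.298). Per1 was at 0.379 (0.178 to 0.926), while Sgk1 was at 0.980 (0.654 to 1.53) and Fkbp5 at 2.01 (0.907 to 5.55), both with intervals that hold 1. The median log2 ratio of all genes in this class was -0.19, the uninjured side had 31 cells, and the groups differed in depth (medians of 14070.5 and 3169 UMIs per cell). Markers of resident microglia were also lower in the injured group (P2ry12 at 270 against 727 CPM, Tmem119 at 152 against 402 CPM, Cx3cr1 at 601 against 1095 CPM), while C1qa was higher (5757 against 2934 CPM), and the part of this in the 4 lower genes was not tested.

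In fibroblast-like cells Sgk1 was 2.68-fold higher in the injured library (1.76 to 4.23), and Nr3c1 and Nr3c2 were lower, at ratios of 0.543 (0.398 to 0.743) and 0.557 (0.325 to 0.962). The intervals for Tsc22d3 (0.740, 0.510 to 1.08), Fkbp5 (2.50, 0.851 to 10.0) and Per1 (1.32, 0.626 to 3.04) held 1. In ependymal-like cells the ratios of Nr3c1 (0.638), Nr3c2 (0.836), Tsc22d3 (0.691), Fkbp5 (0.848) and Per1 (0.754) all had intervals that held 1. Nr3c1 and Nr3c2 were thus lower beyond counting error in 3 of the 4 classes with enough cells in both libraries. Uninjured fibroblast-like cells were shallower than injured ones (medians of 3073 and 11336 UMIs). They also held more Slc1a2 (295 against 34.7 CPM), Aqp4 (54.8 against 19.4 CPM) and Aldoc (204 against 8.32 CPM), transcripts of astrocytes, and less Gja1 (161 against 304 CPM). The part of astrocyte RNA and of depth in the fibroblast-like ratios was not tested.

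Astrocyte-like cells fell into 5 clusters, and 1 of them, led by Tgm1, Gfap and Timp1, held 328 of the 388 injured cells and 15 uninjured ones. The other 4 held most of the uninjured cells. Although Hsd11b1 was left out of the clustering, its level differed between them: it was 452 CPM (429 to 475) in cluster 6 (724 cells, led by Shisa6 and Vav3), 360 CPM (340 to 380) in cluster 4 (825 cells, led by Cldn10 and Nkain4), 154 CPM (138 to 172) in cluster 5 (864 cells) and 148 CPM (136 to 162) in cluster 8 (864 cells, led by Gabbr2 and Shisa9). The highest was 3.04-fold the lowest. Each uninjured cluster remained above the injured level.

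The receptors and Tsc22d3 varied less. Nr3c1 ranged 1.18-fold (221 to 260 CPM), Tsc22d3 1.45-fold (207 to 300 CPM, highest in cluster 6) and Nr3c2 1.93-fold (338 CPM in cluster 4 to 652 CPM in cluster 5). The order of clusters for Nr3c2 was not that for Hsd11b1. Fkbp5 and Sgk1 stayed at or below 1.73 and 0.867 CPM in every one of the 4 clusters.

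**Figure D3:**
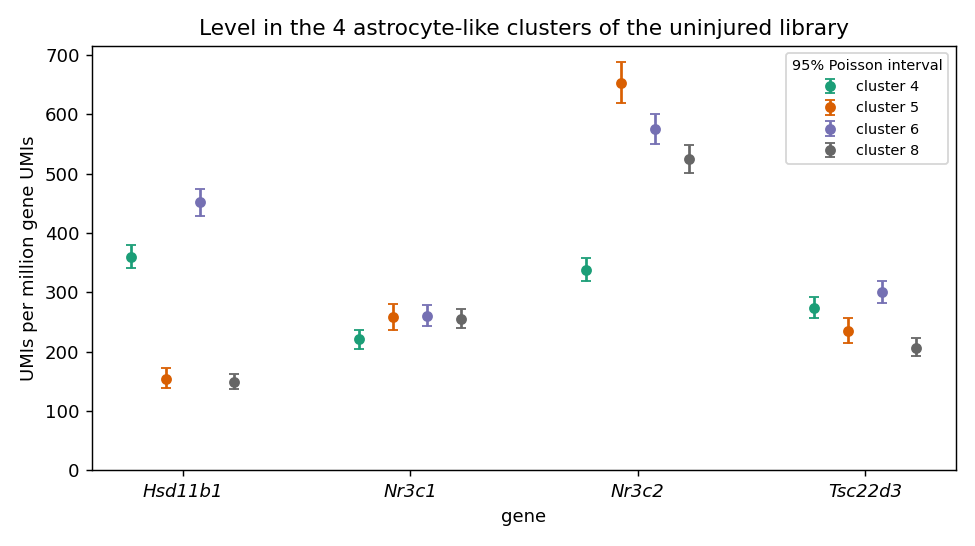
Level of Hsd11b1, Nr3c1, Nr3c2 and Tsc22d3 (UMIs per 1000000 gene UMIs) in the 4 astrocyte-like clusters that hold most uninjured cells, uninjured library only, with 95% Poisson intervals. Hsd11b1 is near 150 CPM in clusters 5 and 8 and at 360 and 452 CPM in clusters 4 and 6, whereas Nr3c1 lies between 221 and 260 CPM throughout.

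Cluster 5, which had few UMIs per cell (median 2130.5), allowed a comparison within a cluster because it also held 38 injured cells. Its injured and uninjured cells were not matched in state, with Gfap at 1597 CPM (1355 to 1870) and 42.5 CPM (34.2 to 52.3). There Hsd11b1 was at 41.5 CPM (11.3 to 106; 4 UMIs) in injured and 154 CPM (138 to 172) in uninjured cells, and Nr3c1 at 83.0 CPM (35.8 to 163) and 258 CPM (237 to 281). The intervals of Nr3c2 (487 CPM, 358 to 648, and 652 CPM, 618 to 688) and Tsc22d3 (197 CPM, 119 to 308, and 234 CPM, 214 to 256) overlapped. Fkbp5 was at 41.5 CPM (4 UMIs) against 0.945 CPM (2 UMIs), and Sgk1 had no UMI in these injured cells.

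Within the injured library, the 60 astrocyte-like cells outside the Tgm1 and Gfap cluster differed from the 328 inside it in Nr3c2. It was at 184 CPM inside and 482 CPM outside, a ratio of 0.382 (0.302 to 0.489), and the level outside was near that of uninjured cells (507 CPM). Hsd11b1 was at 30.8 CPM inside and 50.5 CPM outside (9 UMIs), a ratio of 0.610 (0.302 to 1.40), so that both were far under the uninjured level of 287 CPM. The intervals of the ratios for Nr3c1 (1.17), Tsc22d3 (0.724), Fkbp5 (0.595), Sgk1 (1.86) and Per1 (1.27) all held 1.

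Uninjured astrocyte-like cells with a Hsd11b1 UMI were compared with those without one. Nr3c1 and Nr3c2 were at the same level in both, with ratios of 0.997 (0.928 to 1.07) and 0.996 (0.947 to 1.05). Tsc22d3 was slightly higher in cells with a UMI, at 267 against 235 CPM, a ratio of 1.14 (1.06 to 1.22), and at 1.20 (1.04 to 1.38) at equal depth. Inside the clusters that difference was not seen: the ratio was 1.06 in cluster 4, 1.05 in cluster 5, 1.10 in cluster 6 and 0.925 in cluster 8, each with an interval that held 1. Igfbp2, a binding protein of insulin-like growth factors, and Chil1, a chitinase-like secreted protein, were higher in cells with a UMI (ratios of 2.22, 2.05 to 2.40, and 1.84, 1.64 to 2.06). Inside clusters 4, 5, 6 and 8 the Igfbp2 ratios were 2.05, 1.49, 1.35 and 1.37, each with an interval above 1. Those of Chil1 were 1.73, 1.49, 1.18 and 1.36. The Chil1 interval held 1 in cluster 6 (0.953 to 1.48) and lay above 1 in the other clusters. Cells with a Hsd11b1 UMI were also deeper, with a median of 4101.5 against 2779.5 UMIs.

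Of the other enzymes of local steroid handling, Hsd11b2, which inactivates corticosterone, gave no UMI in astrocyte-like cells of the injured library and 4 in those of the uninjured one (0.317 CPM, 0.0864 to 0.812). H6pd had 4 and 34 UMIs (1.83 and 2.69 CPM), a ratio of 0.678 (0.175 to 1.90), which does not resolve a difference. It was higher in fibroblast-like cells, at 77.6 CPM (58.6 to 101) in the injured and 42.6 CPM (23.3 to 71.5) in the uninjured library.

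A wider list held 28 glucocorticoid response genes. Of the 20 that passed 20 CPM in astrocyte-like cells, 5 were at least 2-fold higher in the injured library, 0 were lower and 15 were within 2-fold, beside 13.3% higher and 7.03% lower of all genes, and the median log2 ratio was 0.22 beside 0.02. Cebpd and Angptl4, among the 5 higher, passed through the injured library alone (5.15 and 5.86 CPM uninjured), so the minimum fixed their direction. The 5 were Cebpd (a transcription factor of acute responses; 177 against 5.15 CPM, a ratio of 34.3, 26.3 to 45.3), Mt1 and Mt2 (metal-binding metallothioneins; ratios of 3.89 and 4.58), Angptl4 (a lipase inhibitor; 4.83) and Cdkn1a (a cell-cycle inhibitor, named because it completes this count).

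Of 18 genes of steroid handling and the receptor complex, 10 passed. The heat-shock chaperones Hsp90aa1 (ratio 3.68, 3.42 to 3.96), Hsp90ab1 and Hspa8 were the 3 at least 2-fold higher and 0 were lower, with a median of 0.33, beside the same 13.3% and 7.03% of all genes. The receptor coactivators Ncoa1 and Ncoa2, named after their values were seen, had log2 ratios of -0.95 and -0.83.

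Of 14 clock genes 13 passed, with 4 at least 2-fold lower, 0 higher and a median of -0.82, beside 7.03% lower and 13.3% higher of all genes. The 4 were Per3 (184.6 against 62.6 CPM, 2.95-fold lower, 2.48 to 3.53), Hlf (2.47-fold), Arntl (2.40-fold) and Dbp (2.19-fold). The clock medians in the other classes were also below those of all genes, at -0.94 in ependymal-like (12 genes; all genes -0.16), -0.72 in fibroblast-like (12 genes; -0.02) and -1.62 in microglia-like cells (7 genes; -0.19). The hour of sampling cannot be told apart from injury here, and Per1 was within 2-fold in astrocyte-like cells.

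Of 10 immediate early genes 4 passed. Fos, Junb and Egr1 did so through the injured library alone (18.1, 8.16 and 3.96 CPM uninjured), so the minimum fixed their direction. All 4 were at least 2-fold higher in injured astrocyte-like cells (Fos 6.62-fold, Junb 6.38-fold, Egr1 6.34-fold and Jun). Their median log2 ratio was 2.46, beside 13.3% of all genes higher. These genes encode transcription factors that respond within minutes to many stimuli.

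**Figure D4:**
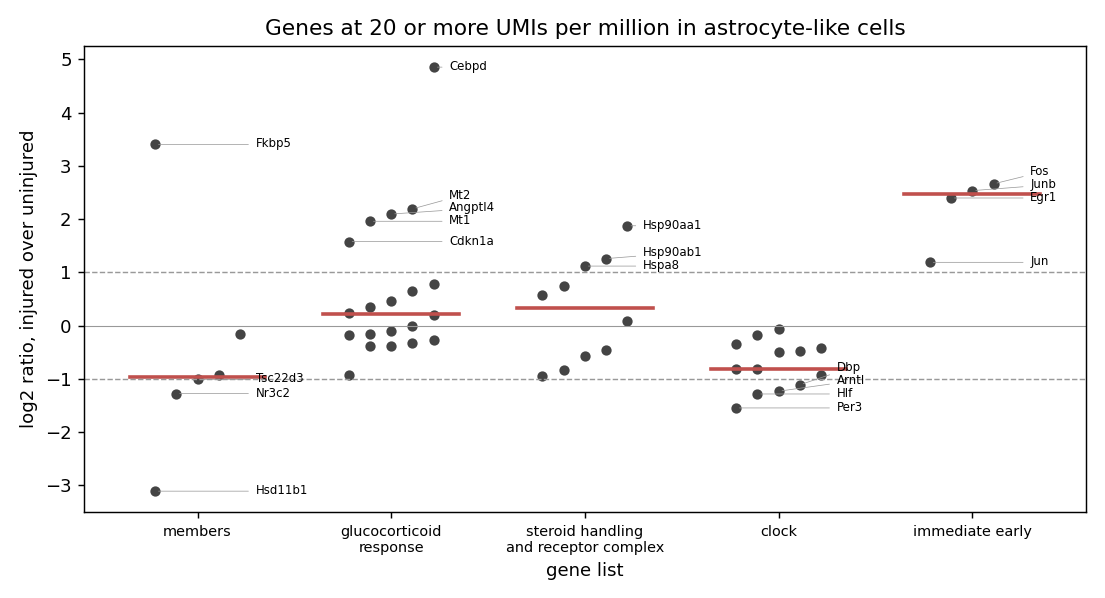
Log2 ratio (injured over uninjured, with 1 CPM added to both sides) of each gene at 20 CPM or more in astrocyte-like cells, by list (members are those of the 7 genes that passed); red bars are list medians and dashed lines mark 2-fold. Most glucocorticoid response genes lie within 2-fold, all 13 clock genes lie below 0 and all 4 immediate early genes lie above the upper line. Fkbp5, Cebpd, Angptl4, Fos, Junb and Egr1 reached 20 CPM in the injured library alone.

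The genes whose pattern was most like that of Hsd11b1 over the 10 groups of class and condition with at least 30 cells were A830019P07Rik (Pearson r of log2 levels 0.967), Gli1 (0.960), Lama2 (0.957), Gpr153 (0.941) and Olfml1 (0.940), out of 12259 genes. All 5 were seen in astrocyte-like and fibroblast-like cells of both libraries and lower in the injured astrocyte-like cells. The groups share 2 libraries, and 0 of the 5 were among the first 5 when only the 4 groups with at least 100 cells were used.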

How the data were processed

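The authors deposited raw UMI counts per gene and cell (10x Genomics 3′ v3.1 chemistry), not normalised and not pooled across conditions. Per the file headers they came from Cell Ranger 7.1.0, whereas the submitters' notes name 8.0.1, and cells had been called before deposit. Barcode features were not used here. Gene identifiers matched GENCODE M21 (GRCm38) for 99.8%. The study's limits of 500 and 50000 UMIs per cell were applied to gene UMIs and removed 40 injured cells. Doublets were not removed, and leaving out the 5% of cells with the highest Scrublet scores was an alternative. Counts were scaled to 10000 per cell and clustered on 2000 variable genes, 15 components, 15 neighbours and Leiden resolution 0.5 (scanpy 1.11.5, igraph 0.11.9, scipy 1.17.1, Python 3.11.15). A cluster took the class with the highest marker score above 0.2, with 3 markers in 10% of its cells and no more markers of another class among its 10 leading genes (those at 100 CPM and in 25% of cells, a minimum set after clusters were seen); 2 clusters stayed unnamed, 1 of them led by neuronal genes. UMIs were summed per class and library. With 1 library per condition no test was possible. Values carry 95% intervals for counting error (exact Poisson, Clopper-Pearson or conditional binomial), and PCR or cell-to-cell spread is not in them. Called means at least 2-fold with 1 CPM added, among genes at 20 CPM in either condition. The ratio and thinning code was tested on simulated data. Genes named beyond the 7 were the 8 highest and 8 lowest list genes beyond 2-fold, H6pd, Hsd11b2, Chil1, Igfbp2 and the 5 genes most like Hsd11b1; names given to complete a count of 5 or fewer, and those said to be named after their values were seen, fall outside it. The genes and lists were chosen with earlier results of these data known.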

Additional observations from a re-analysis of the deposited data

Results flagged for a closer look

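The immediate early genes differed in opposite directions between classes. Their median log2 ratio (injured over uninjured) was 2.46 in astrocyte-like cells (4 of the 10 listed genes at 20 CPM), -1.34 in ependymal-like cells and -1.68 in microglia-like cells (10 genes each), where the medians of all genes were -0.16 and -0.19. In astrocyte-like cells Fos, Junb and Egr1 passed through the injured library alone, which fixed their direction. Without the 20 CPM minimum the median of all 10 genes there was 2.05. The difference between classes was not tested, since each condition had 1 library, and the uninjured ependymal-like and microglia-like groups held 31 cells each.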

How the results depend on the processing

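No paired analysis was possible because 1 library stood for each condition, and for the same reason no library could be left out. Under 14 alternatives Hsd11b1 kept its direction (log2 ratio -3.91 to -2.81, main -3.11), the lowest without cells with a UMI of a microglia, endothelial or fibroblast marker. That alternative, counting the neuron-led cluster as astrocyte-like and leaving out shared barcodes were added after the data were seen. The same marker-free cells gave -1.52 for Nr3c1, -0.73 for Tsc22d3 and 1.74 for Fkbp5, list counts of 10 lower (main 4) and 2 lower in the glucocorticoid list (main 0), and shares with a Hsd11b1 UMI of 4.86% (injured) and 44.4% (uninjured). Male-scored cells gave -0.94 for Nr3c2, -1.20 for Tsc22d3, 8 glucocorticoid genes higher (main 5) and shares of 19.7% and 53.4%. Cells with an Aldh1l1 UMI gave 8 genes higher and shares of 17.2% and 52.9%. A pseudocount of 10 CPM gave 1.60 for Fkbp5 and 0.87 for Sgk1. Equal weighting of cells gave -1.21 for Nr3c1, -1.62 for Nr3c2 and -0.82 for Tsc22d3. Thinning gave -1.57 for Nr3c2, -0.74 for Tsc22d3, -1.06 for Per1, and shares of 3.40% and 21.3%. Between cells with and without a Hsd11b1 UMI at full depth, the thinned ratios were 0.915 for Nr3c1, 0.915 for Nr3c2 and 2.95 for Sgk1. Asking 2 UMIs gave shares of 3.35% and 26.3%. No filter on cells gave 7 list genes lower, 1 in the glucocorticoid list, and an uninjured share of 44.9%. Leiden resolution 1.0 gave an uninjured share of 54.8%, all genes kept in the clustering 1 lower glucocorticoid gene, and no filter on low values 22 genes higher, 9 of them in the glucocorticoid list. Groups of at least 100 cells shared 0 of the 5 genes most like Hsd11b1. The causes of these moves were not tested. Of 181 values in all, 142 stayed within the counting interval or 1.5 times the main count and no ratio at least 2-fold in the reported analysis changed direction. Per1 crossed 0 in male-scored cells (0.0147), and the Sgk1 ratio above crossed 1 (main 0.715). Depth limited Fkbp5 and Sgk1 in astrocyte-like cells, each with at most 54 UMIs per library.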
